A study of Mus musculus with 67 samples.

Results

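The comparison is of light-exposed mouse embryos at the 8-cell stage with light-exposed embryos at the 4-cell stage, with 8 libraries at each stage, or 16 of the 67 libraries of the series. The libraries were chosen by their labels alone, as all those of the light group at these stages, and no measured value entered the choice of libraries. The comparison itself was chosen with earlier results of these data known. All embryos were C57BL/6 and came from in vitro fertilisation. At the 2-cell stage the light group was kept under 5000 lx of full-spectrum light for 6 h and then grown in the dark, whereas the control group stayed in the dark throughout. Embryos were dissociated with trypsin, single cells were picked by hand, and SMART-seq2 libraries were made from polyadenylated RNA. The labels number embryos within a stage but do not say which libraries came from the same mating or culture, or whether each library is a cell of a different embryo, so cells of the same embryo may be among them and the p-values measure the spread between these libraries. The comparison is between groups of libraries and not of the same embryo followed through a division. The labels give no sex for any embryo.

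Between the 4-cell and 8-cell stages the mouse embryo removes what is left of the oocyte's RNA, relies on its own genome, and then compacts: blastomeres flatten onto each other through E-cadherin, and each cell gains an apical domain with its own actomyosin. Apical polarity is read out by the Hippo pathway, in which angiomotin proteins can keep the coactivator YAP away from TEAD4. This readout later separates trophectoderm from inner cell mass. In female embryos Xist RNA begins to coat the paternal X chromosome during the same cleavage stages.

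Total reads per library ran from 952397 to 7072597 at the 4-cell stage and from 2347909 to 8551674 at the 8-cell stage, and 54.6% to 73.9% of them lay on 2 ribosomal RNA loci, CT010467.1 and Gm42418. That share was 61.6% ± 4.55 (SD, n = 8) in the 4-cell and 71.1% ± 1.99 (SD, n = 8) in the 8-cell libraries, with no overlap (exact two-sided permutation test, p = 0.000155, the smallest this test allows, and 0.000544 after adjustment over 7 library measures). The deposited scaling followed these loci, so expression is given here as a normalised value, which is the deposited value rescaled so that a typical gene has the same level in every library. It is not divided by gene length, and so compares libraries, not genes. Blastomere genes were present in all 16 libraries: Pou5f1, the core pluripotency factor, lay between 57.6 and 201, and Dppa3, a maternal protein that guards DNA methylation, between 1347 and 3539. Of 17 cumulus and granulosa cell markers 14 were in the table, and the defining Cyp19a1, Fshr, Lhcgr and Foxl2 were at 0 in all 16 libraries. The sperm genes Tnp1, Tnp2 and Odf1 and the blood and liver genes Hbb-bs, Alb and Apoa1 were at 0 as well, and none of the 3, 4 and 2 markers tested in these lists passed the test. Other members did have reads. The summed level of the cumulus list was 32.2 to 75.995 in the 4-cell and 24.996 to 82.8 in the 8-cell libraries, with Amhr2 alone at up to 79.8, that of the sperm list 16.5 to 33.7 and 6.25 to 43.7, and that of the blood and liver list 0 to 10.01 and 0 to 11.4 (normalised values).

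The libraries of the 2 stages were not alike in their sex-linked RNA, which bears on several results. All 8 of the 4-cell libraries held Y-linked reads, at 130.1 to 283 CPM (counts scaled to the library's reads outside the ribosomal loci), with Xist at 4.41 to 35.1 CPM. At the 8-cell stage, libraries 5, 9 and 10 held Y-linked reads at 63.1 to 209 CPM with Xist at 5.37 to 10.2 CPM, whereas libraries 6, 7, 8, 11 and 12 held Y-linked reads at 0 to 6.54 CPM with Xist at 301 to 1209 CPM. Mean Y-linked reads were 178 CPM at the 4-cell and 48.6 CPM at the 8-cell stage (exact two-sided permutation test, p = 0.00264, adjusted p = 0.00616). Stage and this difference cannot be told apart in the full comparison, so the main results are given again with 8-cell libraries 5, 9 and 10 alone against the 8 libraries of the 4-cell stage, where all libraries carry Y-linked reads.

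In all, 386 of 15406 genes tested (2.51%) changed between the stages, by an adjusted p under 0.05 (limma, Benjamini-Hochberg) and a fold of at least 2. Of these, 156 genes rose (1.01% of those tested) and 230 fell (1.49%), and these are called DEGs below. Without the fold requirement 515 genes passed (3.34%), 225 of them higher and 290 lower at the 8-cell stage. The split depended on the scale: 40.4% of DEGs rose on the main scale and 5.87% of 1602 DEGs on the deposited scale, where the median gene stood at -0.45 against -0.04 (log2) on the main scale. Without 4-cell library 1 the count was 243. With only the Y-carrying 8-cell libraries it was 333, of which 84 rose and 249 fell, and 149 of them (37 rises and 112 falls) were also among the 386, which is 44.7% of the 333 and 38.6% of the 386.

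Across all genes tested, stage accounted for 12.3% of the squared distance between libraries (exact one-sided permutation test over 12870 regroupings, p = 0.000155, the smallest it can give). Most of the spread therefore lay among libraries of the same stage. Pairs of 8-cell libraries differed by a median of 1.56 (log2, root mean square over genes), pairs of 4-cell libraries by 1.37, and pairs from different stages by 1.55. Of the 16 libraries, 10 had a library of their own stage as nearest neighbour. With libraries thinned to 377385 reads, 11363 ± 440.4 (SD, n = 8) genes were detected at the 4-cell and 11031 ± 299 (SD, n = 8) at the 8-cell stage, a difference within the spread (exact two-sided permutation test, p = 0.1002).

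The genes named first are the 12 largest rises and the 12 largest falls among DEGs whose libraries did not overlap between the stages, a condition met by 92 of all genes tested (0.597%) and by 56 of the DEGs (0.363% of genes tested). Among the rises were regulators of the Hippo pathway, of growth factor signalling and of the cytoskeleton. Amot, the angiomotin scaffold, lay between 0 and 13.4 (median 4.25) in the 4-cell libraries and between 16.2 and 82.1 (median 50.7) in the 8-cell libraries. Every 8-cell library thus exceeded every 4-cell library, and Amot rose by 3.27 ± 0.50 (log2, SE), adjusted p = 4.01e-04. Tle3, a Groucho corepressor, lay between 0 and 22.1 (median 5.63) in the 4-cell libraries and between 29.01 and 68.8 (median 50.1) in the 8-cell libraries, and the rise was 3.12 ± 0.56 (log2, SE), adjusted p = 0.00253. Crip2, a LIM-domain protein, lay between 1.76 and 51.1 (median 30.3) in the 4-cell libraries and between 51.4 and 261 (median 137) in the 8-cell libraries. It rose by 2.76 ± 0.51 (log2, SE), adjusted p = 0.00290, with almost no gap between the stages. Spry2, a feedback inhibitor of receptor tyrosine kinases, lay between 3.09 and 49.2 (median 28.7) in the 4-cell libraries and between 55.7 and 208 (median 75.1) in the 8-cell libraries and rose by 1.99 ± 0.41 (log2, SE), adjusted p = 0.00681. Actn1, the actin crosslinker alpha-actinin, had mean values of 15.8 and 60.5, and Vgll4, a cofactor that competes with YAP for TEAD proteins, of 6.90 and 26.3, rises of 2.13 and 2.15 (log2). Rpph1, the RNA of ribonuclease P, rose by 2.65 (log2) from a mean of 4.15 to 24.5. The other rises were smaller. Rbbp7, a histone-binding subunit of several chromatin complexes, Rpl36a, a ribosomal protein, Hprt, the purine salvage enzyme, Skp1a, an adaptor of SCF ubiquitin ligases, and Myl6, a light chain of non-muscle myosin, rose by 1.02 to 1.56 (log2). The call of Hprt was lost without 8-cell library 11, that of Skp1a without 4-cell libraries 13 or 14 or 8-cell libraries 8, 9 or 11, and that of Myl6 on leaving out any 1 of 7 libraries.

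The 12 falls ranged from 2.28 to 4.18 (log2) and held an oocyte receptor, a repressor of adhesion genes, and Dcaf8, Trim13, Rnf170 and Uba1y, which act in ubiquitination. Snai1, the zinc finger repressor best known for acting on E-cadherin, lay between 21.1 and 59.1 (median 42.3) in the 4-cell libraries and between 0 and 18.1 (median 1.29) in the 8-cell libraries. It fell by 3.77 ± 0.56 (log2, SE), adjusted p = 3.41e-04. Gpr3, the receptor that holds the oocyte in meiotic arrest, lay between 30.9 and 71.4 (median 46.9) in the 4-cell libraries and between 0 and 15.4 (median 3.53) in the 8-cell libraries and fell by 3.63 ± 0.54 (log2, SE), adjusted p = 3.41e-04. Trim13, a ubiquitin ligase of the endoplasmic reticulum, lay between 47.1 and 138 (median 96.6) in the 4-cell libraries and between 1.92 and 32.9 (median 12.3) in the 8-cell libraries and fell by 2.76 ± 0.41 (log2, SE), adjusted p = 3.41e-04. Zfp296, a zinc finger gene of pluripotent cells, lay between 102 and 369 (median 212) in the 4-cell libraries and between 13.3 and 83.6 (median 39.3) in the 8-cell libraries and fell by 2.28 ± 0.35 (log2, SE), adjusted p = 5.23e-04. In each of these genes all 8-cell libraries were below all 4-cell libraries, and Snai1 and Gpr3 reached 0 in at least 1 of them. Prdm14, a pluripotency and germ cell factor, fell by 3.00 (log2), from a mean of 16.3 to 0.903, and Dcaf8, a substrate receptor of CUL4 ubiquitin ligases, fell by 2.87, from 73.5 to 17.2. Pus7l, a pseudouridine synthase, Atxn1, Brat1, a partner of BRCA1 and ATM, and Rnf170, a ubiquitin ligase, fell by 2.44 to 3.23 (log2). The other 2 falls were Y-linked. Uba1y, the Y copy of the ubiquitin-activating enzyme, fell by 4.18 (log2), and Usp9y lay between 0.502 and 54.3 in the 4-cell libraries and was at 0 in all 8-cell libraries, also in those with other Y-linked reads. No call of the 12 falls was lost on leaving out any single library.

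**Figure D1:**
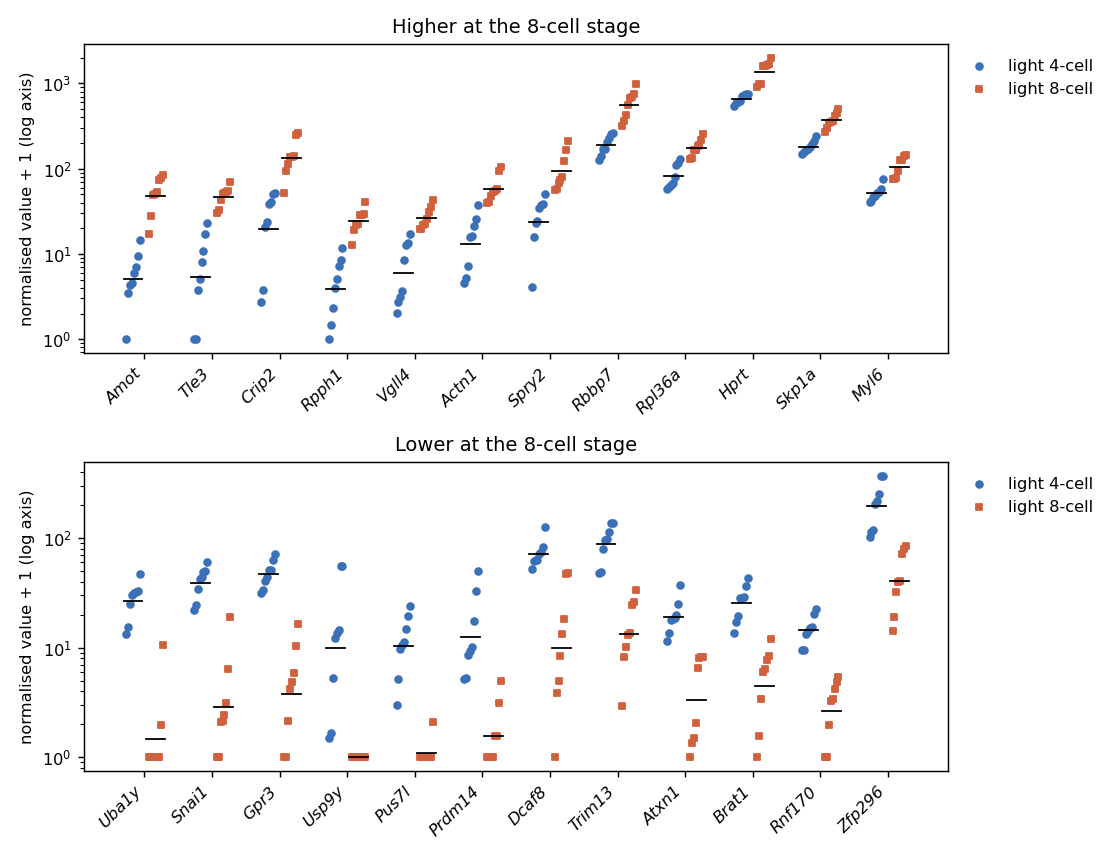
Normalised values (plus 1, log axis) of the 12 largest rises and the 12 largest falls in each 4-cell and 8-cell library of the light group, where each point is a library and short lines mark the mean on the log scale. The libraries of the 2 stages do not overlap for any of these genes, as the choice required, and Snai1 runs from 21.1 to 59.1 at the 4-cell stage and from 0 to 18.1 at the 8-cell stage.

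With the 3 Y-carrying 8-cell libraries alone, the rises of Amot at 3.49 (adjusted p = 0.0136), Actn1, Spry2 and Skp1a and the falls of Snai1, Gpr3, Pus7l, Dcaf8, Trim13, Atxn1, Zfp296 and Uba1y were still DEGs. Tle3 was then at 2.99 (adjusted p = 0.0698), Crip2 at 2.55 (adjusted p = 0.0563), Vgll4 at 2.28 (adjusted p = 0.113), Prdm14 at -2.33 (adjusted p = 0.127) and Brat1 at -2.23 (adjusted p = 0.0547) on the log2 scale, all in the same direction and past the threshold of the test in none of the cases. Rpph1, Rnf170 and Myl6 did not pass either. This smaller comparison has 3 libraries on 1 side, and what the smaller number does to the calls was not tested. Rpl36a and the Y-linked genes have close copies elsewhere in the genome, between which read counting can divide reads.

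Rises made up a larger share of the genes on the X chromosome than on any autosome. Chromosomes could be given to 15357 of the genes tested, and this count by chromosome was chosen after the values were seen. Of 508 X-linked genes tested, 29 rose (5.71%) and 1, Rbm10, fell (a call lost on leaving out any 1 of 11 libraries), with a median change of 0.41 (log2), against 126 of 14813 autosomal genes that rose (0.851%), 224 that fell (1.51%) and a median of -0.05. The highest share of rises on an autosome was 1.42%, on chromosome 9. Xist, the RNA that coats the inactive X, lay between 3.34 and 26.6 (median 9.70) in the 4-cell libraries and between 4.22 and 955 (median 321) in the 8-cell libraries and rose by 3.34 ± 0.87 (log2, SE), adjusted p = 0.0322, a call lost on leaving out any 1 of 8 libraries. Xist was low in every 4-cell library, and in the 8-cell libraries it was either as low or far higher, with no value between.

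The X-linked level of a library was taken as the median log2 difference of 199 X-linked genes (mean value of at least 10) from their 4-cell mean. It was -0.13 to 0.11 in the 4-cell libraries and 0.09 to 0.20 in 8-cell libraries 5, 9 and 10, but 0.83 to 1.14 in 8-cell libraries 6, 7, 8, 11 and 12, those in which Xist was above 300 CPM. On the log2 scale a value of 1 is a doubling. The same measure over 7205 autosomal genes was 0.00 to 0.06 in all 16 libraries, where the rescaling itself holds the typical gene near 0. The libraries with the most Xist RNA were thus also those with the highest X-linked level. Among the other X-linked rises, named after their values were seen, Prps1, of nucleotide synthesis, went from a mean of 909.9 to 1920.4, Cited1, a transcriptional coregulator, from 77.6 to 215, and Bcor, a corepressor, from 14.2 to 70.4. The calls of Prps1 and Bcor were lost on leaving out any 1 of 7 and of 4 libraries, and none of the 3 was a DEG in the Y-carrying libraries alone. Hprt lay between 545 and 756 in the 4-cell libraries, between 896 and 986 in the 3 Y-carrying 8-cell libraries and between 1591 and 1981 in the other 5. Rbbp7 was at 125 to 260.0, 319 to 421 and 561 to 970 in the same order, so both genes were higher than at the 4-cell stage in the Y-carrying libraries as well. With those 3 libraries alone the X-linked median was 0.08, and 1 X-linked gene, Amot, rose and 8 fell of 426 tested. Hprt, Rbbp7 and Rpl36a were not DEGs, and Rbbp7 was at 0.96 (adjusted p = 0.0412) on the log2 scale, short of a 2-fold change.

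**Figure D2:**
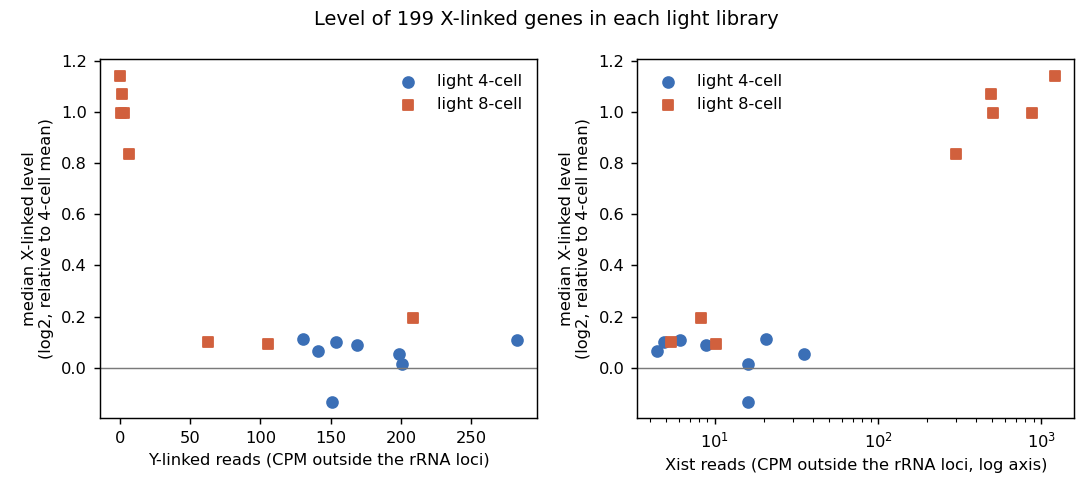
X-linked level of each light 4-cell and 8-cell library, taken as the median log2 difference of 199 X-linked genes from the 4-cell mean. The level is set against Y-linked reads (left) and Xist reads (right, log axis), with libraries marked by stage. The 5 libraries with Xist above 300 CPM sit at 0.83 to 1.14, and the other 11 at -0.13 to 0.20.

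**Figure D3:**
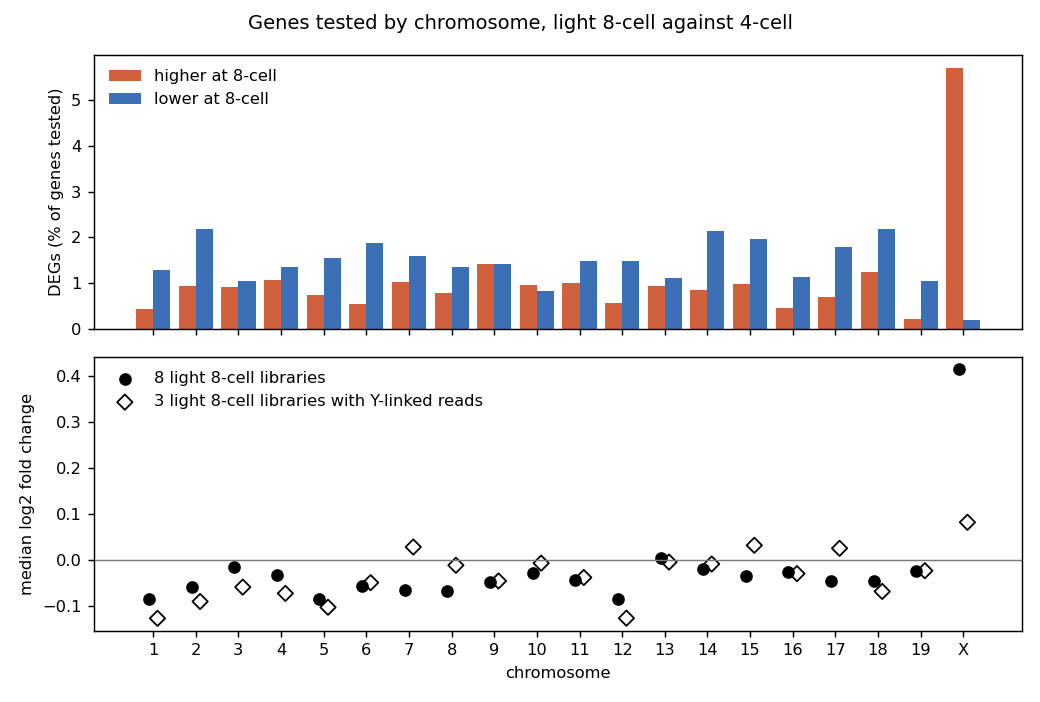
Top, percentage of tested genes on each chromosome that were DEGs, higher or lower at the 8-cell stage. Bottom, median log2 fold change per chromosome with all 8 of the 8-cell libraries (filled circles) and with the 3 that hold Y-linked reads (open diamonds). The X chromosome has 5.71% of its genes among the rises, while the highest autosome has 1.42%.

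Of 4 X inactivation genes tested, 3 rose: Xist, its antisense partner Tsix and Spen, the silencing factor that Xist recruits. Strand was not stated for the counting, so reads of Xist and Tsix cannot be told apart. Spen lay between 0.882 and 46.4 (median 16.2) in the 4-cell libraries and between 35.2 and 89.2 (median 54.9) in the 8-cell libraries and rose by 2.13 ± 0.49 (log2, SE), adjusted p = 0.0157. None of the 4 was a DEG in the Y-carrying libraries alone. Of 8 Y-linked genes tested, 4 fell in the full comparison, Uba1y, Usp9y, Ddx3y and Eif2s3y, and only Uba1y in the Y-carrying libraries alone. The calls of Ddx3y, Eif2s3y and Tsix were lost on leaving out any 1 of 10, 12 and 12 libraries.

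Several RNAs stored in the oocyte fell. Of 56 oocyte and maternal genes tested, 6 fell and 0 rose by at least 2-fold. Of their estimates 48 were below 0 and the median was -0.79, against 8047 of 15406 and -0.04 over all genes. Trim61, an oocyte TRIM gene, lay between 54.7 and 131 (median 86.97) in the 4-cell libraries and between 12.1 and 32.3 (median 17.3) in the 8-cell libraries and fell by 2.05 ± 0.29 (log2, SE), adjusted p = 2.99e-04. Its stages did not overlap. Spin1, the abundant maternal chromatin reader spindlin, lay between 228 and 577 (median 340.2) in the 4-cell libraries and between 94.03 and 234 (median 149) in the 8-cell libraries and fell by 1.22 ± 0.20 (log2, SE), adjusted p = 0.00108, with a narrow overlap. Oog3, an oocyte-specific gene, lay between 37.4 and 105 (median 77.4) in the 4-cell libraries and between 10.2 and 43.05 (median 34.2) in the 8-cell libraries and fell by 1.30 ± 0.31 (log2, SE), adjusted p = 0.0185. The remaining falls were Btg4, the adaptor that brings the CCR4-NOT deadenylase to maternal RNA, from 30.5 to 10.7, Omt2a, from 65.01 to 28.2, and Nlrp9c, from 24.99 to 6.54 (mean values). These 3 calls were lost on leaving out any 1 of 5 to 7 libraries. Against the direction of the list, Dppa3 was higher at the 8-cell stage, from 1714 ± 225 to 2477 ± 506 (mean ± SD, n = 8), a rise of 0.52 ± 0.13 (log2, SE), adjusted p = 0.0207, short of 2-fold. The summed level of the whole list, in which abundant genes weigh most, did not fall. It was 2776 to 3663 (median 3153) in the 4-cell and 2712 to 4422 (median 3316) in the 8-cell libraries. In the Y-carrying libraries alone 7 of 54 members fell and 0 rose. The Trim61 and Oog3 genes belong to families with near-identical copies, so their counts are uncertain. Of 26 genes that are switched on briefly at the 2-cell stage, 1 fell (3.85%, against 2.51% of all genes) and 0 rose, with a median of -0.13. It was Klf17, a zinc finger factor of the early embryo, which lay between 235 and 914 (median 645) in the 4-cell libraries and between 105 and 639 (median 277) in the 8-cell libraries and fell by 1.12 ± 0.28 (log2, SE), adjusted p = 0.0220. The call was lost without 4-cell library 14 or 8-cell library 5.

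Several junction genes rose. Of 31 genes of compaction, adhesion and junctions tested, 5 rose and 0 fell, with a median of 0.31. Cldn7, a tight junction claudin, lay between 6.43 and 97.1 (median 24.3) in the 4-cell libraries and between 25.7 and 199 (median 124) in the 8-cell libraries and rose by 2.25 ± 0.44 (log2, SE), adjusted p = 0.00455. Cldn4, another claudin, lay between 22.6 and 217 (median 76.8) in the 4-cell libraries and between 36.5 and 526.4 (median 434) in the 8-cell libraries and rose by 2.00 ± 0.43 (log2, SE), adjusted p = 0.00974. The lowest 8-cell library stood far below the others in both genes, library 8 for Cldn7 and library 9 for Cldn4. It was the only 8-cell library within the 4-cell range for Cldn4, while for Cldn7 libraries 5 and 11 were within it too. Among the other rises were Itga3, an integrin subunit, with means of 1.64 and 20.8, and Tjp1, the tight junction scaffold ZO-1, with means of 53.7 and 119, whose call was lost on leaving out any 1 of 10 libraries. Cdh1, which encodes E-cadherin itself, lay between 60.7 and 173 (median 100.4) in the 4-cell libraries and between 65.8 and 189.8 (median 113) in the 8-cell libraries, a difference of 0.10 ± 0.25 (log2, SE), adjusted p = 0.888. It overlapped almost fully. The tight junction gene Cldn6 was not called at 1.58 ± 0.79 (log2, SE), adjusted p = 0.298. In the Y-carrying libraries alone 2 members rose, among them Cldn7, and 1 fell.

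Of 37 genes of apical-basal polarity and actomyosin, 3 rose and 0 fell: Actn1, Myl6 and Csrp1, the last with a call lost on leaving out any 1 of 7 libraries. The median was 0.14, and -0.43 on the deposited scale. The 3 are binders of actin or myosin, while the polarity regulators named here did not pass the test. Prkci, the atypical protein kinase C of the apical complex, lay between 0.667 and 16.1 (median 5.03) in the 4-cell libraries and between 7.24 and 19.01 (median 13.3) in the 8-cell libraries, a difference of 1.21 (adjusted p = 0.229). Its partner Pard6b was at 0.64 (adjusted p = 0.720) and Ezr, the apical linker ezrin, at 0.35 (adjusted p = 0.831) on the log2 scale, with both genes at 0 in at least 1 library of each stage. Only Actn1 was a DEG of this list in the Y-carrying libraries alone. None of 3 keratin genes tested passed, with Krt8 at 0.78 (adjusted p = 0.528) and Krt18 at 0.70 (adjusted p = 0.635).

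Of 23 Hippo pathway genes tested, 3 rose and 0 fell, and the median was -0.01. The rises were Amot, Vgll4 and Amotl2, the angiomotin relative. Angiomotins keep YAP away from TEAD4, and Vgll4 competes with YAP for TEAD proteins. On the deposited scale 3 members rose and 3 fell. Amotl2 lay between 0.667 and 36.4 (median 21.96) in the 4-cell libraries and between 16.6 and 202 (median 137) in the 8-cell libraries and rose by 2.90 ± 0.58 (log2, SE), adjusted p = 0.00541, and all 8-cell libraries except library 8 were above the 4-cell range. Tead4, the DNA-binding partner of YAP that trophectoderm needs, lay between 166 and 302 (median 190.3) in the 4-cell libraries and between 50.9 and 373 (median 216) in the 8-cell libraries, a difference of -0.14 ± 0.28 (adjusted p = 0.859). Amot and Amotl2 were also DEGs with the Y-carrying 8-cell libraries alone, at 3.49 (adjusted p = 0.0136) and 3.07 (adjusted p = 0.0338).

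Because these 3 genes rose together, the 250 bases before the start of each (RefSeq, GRCm38.p6) are shown, with the TEAD motif GGAATG or its reverse complement CATTCC in capitals. The Amot promoter is at chrX:145487640-145487889 on the minus strand, that of Amotl2 at chr9:102717554-102717803 on the plus strand and that of Vgll4 at chr6:114969204-114969453 on the minus strand, each written 5′ to 3′ on the strand of its gene.
Amot: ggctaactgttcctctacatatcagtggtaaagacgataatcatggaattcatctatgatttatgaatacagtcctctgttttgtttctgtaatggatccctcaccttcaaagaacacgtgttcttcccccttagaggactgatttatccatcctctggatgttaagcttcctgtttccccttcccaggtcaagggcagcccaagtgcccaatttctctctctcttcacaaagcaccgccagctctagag
Amotl2: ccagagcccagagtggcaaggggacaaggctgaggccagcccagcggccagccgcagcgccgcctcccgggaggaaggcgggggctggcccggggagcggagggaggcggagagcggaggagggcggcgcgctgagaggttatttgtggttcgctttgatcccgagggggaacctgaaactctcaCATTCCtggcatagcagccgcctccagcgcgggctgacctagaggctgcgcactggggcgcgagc
Vgll4: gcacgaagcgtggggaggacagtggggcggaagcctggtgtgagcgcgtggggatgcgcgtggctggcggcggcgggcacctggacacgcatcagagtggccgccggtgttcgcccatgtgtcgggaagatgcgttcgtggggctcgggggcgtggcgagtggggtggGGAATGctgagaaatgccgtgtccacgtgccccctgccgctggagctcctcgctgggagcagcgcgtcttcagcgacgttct

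The motif begins 65 bases before the start of Amotl2 and 82 bases before that of Vgll4, and these letters are not in the Amot window. Of 32851 promoters of the same length, 4153 (12.6%) hold the motif on either strand. The match describes the sequence and was not tested as a binding site.

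Lineage genes moved in both directions. Of 23 trophectoderm genes tested, 4 rose and 1 fell, with a median of 0.70. Dab2, an endocytic adaptor used by trophectoderm and primitive endoderm, lay between 0 and 33.2 (median 8.04) in the 4-cell libraries and between 5.23 and 148 (median 86.7) in the 8-cell libraries and rose by 3.00 ± 0.63 (log2, SE), adjusted p = 0.00767. Gcm1, a factor of the later placenta, lay between 8.21 and 137 (median 29.9) in the 4-cell libraries and between 0 and 16.2 (median 1.87) in the 8-cell libraries and fell by 3.25 ± 0.69 (log2, SE), adjusted p = 0.00880. The other rises were Cldn4, Ascl2, a trophoblast bHLH factor with means of 0.514 and 7.72 and a call lost on leaving out any 1 of 8 libraries, and Lrp2, whose call was lost on leaving out any 1 of 12. Cdx2, the factor that sets trophectoderm identity, was near or at 0, at 0 to 0.667 in the 4-cell and 0 to 8.10 in the 8-cell libraries. Gata3 lay between 0.467 and 4.00 (median 1.67) in the 4-cell libraries and between 1.07 and 56.3 (median 10.8) in the 8-cell libraries, a difference of 2.22 ± 0.70 (log2, SE), adjusted p = 0.0780, and Tfap2c was at -0.26 (adjusted p = 0.665). In the Y-carrying libraries alone 2 trophectoderm genes rose, Dab2 and Ascl2, and Gcm1 fell, with a median of 0.18.

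Of 29 pluripotency factors tested, 1 rose and 2 fell. Klf2 lay between 172 and 469 (median 282) in the 4-cell libraries and between 43.8 and 203 (median 135) in the 8-cell libraries and fell by 1.37 ± 0.28 (log2, SE), adjusted p = 0.00646, beside the fall of Prdm14 given above. Dppa5a, an RNA-binding protein of pluripotent cells, lay between 73.2 and 499 (median 256) in the 4-cell libraries and between 309 and 741 (median 576) in the 8-cell libraries and rose by 1.18 ± 0.26 (log2, SE), adjusted p = 0.0119, a call lost without 4-cell library 1. Pou5f1 lay between 57.6 and 164 (median 109) in the 4-cell libraries and between 107 and 201 (median 161) in the 8-cell libraries, a difference of 0.59 ± 0.22 (log2, SE), adjusted p = 0.145. Nanog was at -1.66 ± 0.71 (adjusted p = 0.214), and Sox2 was too low to be tested. Prdm14 and Klf2 were not DEGs in the Y-carrying libraries, Klf2 at -0.97 (adjusted p = 0.0623), where 1 other member fell. Of 13 primitive endoderm genes tested, 2 rose, Gata6 and Dab2, and 1 fell, Gata4. Gata6 lay between 4.11 and 80.9 (median 30.2) in the 4-cell libraries and between 46.9 and 186 (median 124) in the 8-cell libraries and rose by 2.09 ± 0.42 (log2, SE), adjusted p = 0.00560. Gata4, a factor of the same family, lay between 150.2 and 409.5 (median 267) in the 4-cell libraries and between 19.2 and 173 (median 106) in the 8-cell libraries and fell by 1.40 ± 0.32 (log2, SE), adjusted p = 0.0143. The 2 GATA factors thus moved in opposite directions, and both were also DEGs in the Y-carrying libraries, with Gata6 at 2.19 (adjusted p = 0.0460) and Gata4 at -1.70 (adjusted p = 0.0310).

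**Figure D4:**
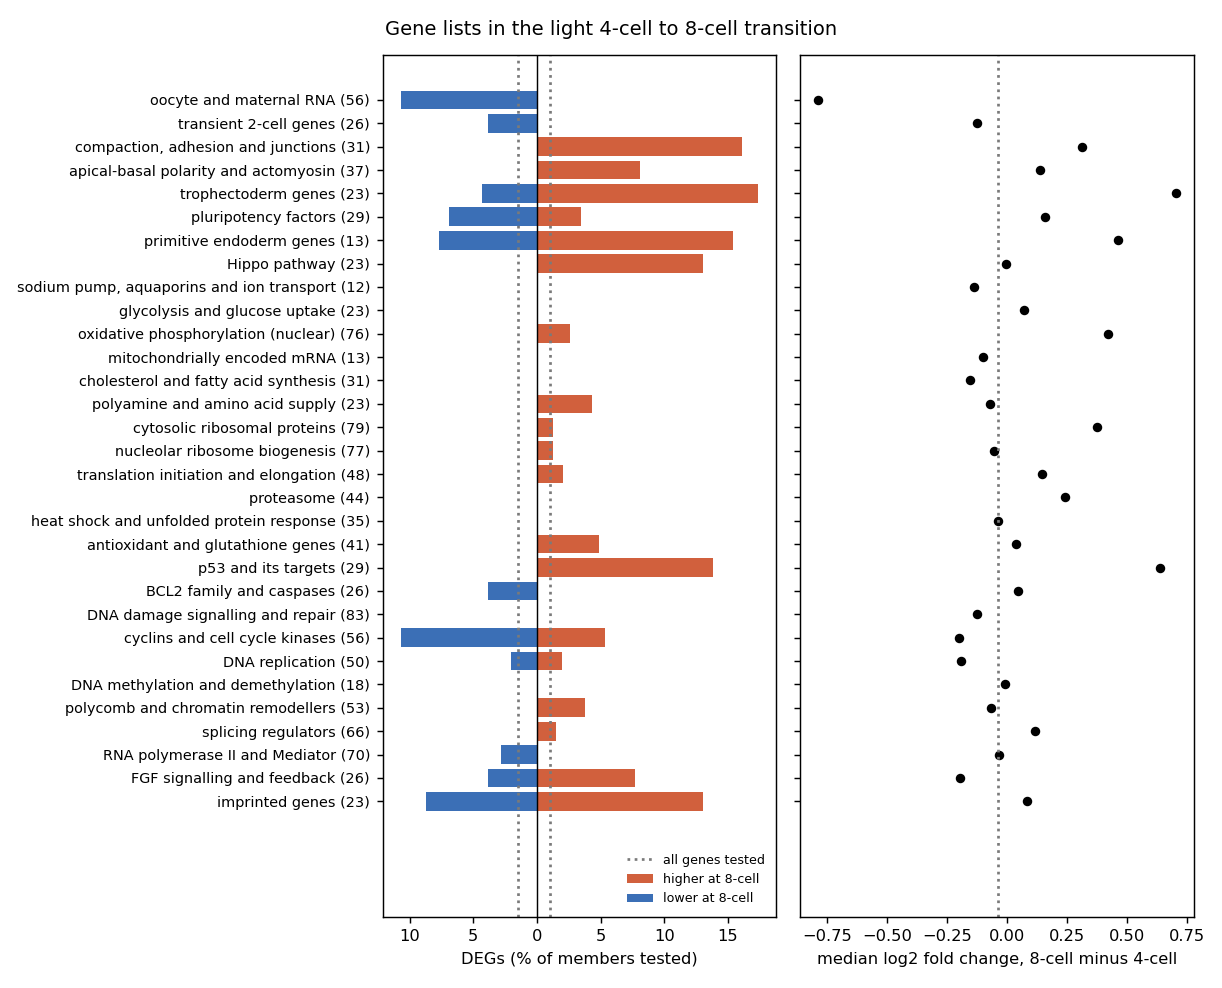
Left, percentage of the tested members of each list that rose (right of 0) or fell (left of 0) from the 4-cell to the 8-cell stage, with the number tested in brackets and dotted lines at the shares of all genes tested. Right, the median log2 fold change of each list, for example -0.79 for oocyte and maternal RNA and 0.70 for trophectoderm genes. Keratins, the sex-linked lists and markers of other cell types are not drawn.

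Of 26 FGF signalling genes tested, 2 rose and 1 fell, with a median of -0.20. Beside Spry2, the receptor Fgfr1 lay between 3.97 and 36.2 (median 12.96) in the 4-cell libraries and between 24.5 and 108 (median 49.5) in the 8-cell libraries and rose by 2.03 ± 0.47 (log2, SE), adjusted p = 0.0155. The Y-carrying libraries alone gave 1 rise (Spry2) and 2 falls.

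Cell cycle genes moved in both directions. Of 56 cyclins and cell cycle kinases tested, 3 rose and 6 fell, with a median of -0.20. The rises were the G1 cyclins Ccnd1 and Ccnd3 and the cyclin-dependent kinase inhibitor Cdkn1a. The call of Ccnd3 was lost on leaving out any 1 of 8 libraries and in the Y-carrying libraries alone, at 1.63 (adjusted p = 0.117). Ccnd1 lay between 0 and 7.63 (median 1.04) in the 4-cell libraries and between 0 and 107 (median 22.9) in the 8-cell libraries and rose by 3.24 ± 0.74 (log2, SE), adjusted p = 0.0153. It was nearly absent from the 4-cell libraries and at 0 in 8-cell library 11. Among the falls, Aurkb, the kinase of the chromosomal passenger complex, lay between 99.5 and 248 (median 189) in the 4-cell libraries and between 43.7 and 116 (median 64.7) in the 8-cell libraries and fell by 1.27 ± 0.24 (log2, SE), adjusted p = 0.00402. Ccnf, cyclin F, lay between 71.1 and 315 (median 163) in the 4-cell libraries and between 21.3 and 124 (median 61.7) in the 8-cell libraries and fell by 1.48 ± 0.32 (log2, SE), adjusted p = 0.00881, and Bub1b, of the spindle checkpoint, fell by 1.38 (log2) from a mean of 56.7 to 21.9. Cdc25b, Fbxo43 and Espl1, which act at mitotic entry, meiotic arrest and sister separation, had falls whose calls were lost on leaving out any 1 of 9, 9 and 2 libraries, for Espl1 8-cell libraries 5 and 9. Ccnd1, Aurkb and Ccnf were DEGs in the Y-carrying libraries too, where 2 members rose and 5 fell in all. Of 50 replication genes, Rfc4, a clamp loader subunit, rose and Orc2, of the origin recognition complex, fell, and these calls were lost on leaving out any 1 of 12 and of 9 libraries. DEGs were thus 4% of this list, against 2.51% of all genes.

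Of 29 p53 targets and regulators tested, 4 rose and 0 fell, with a median of 0.64. Cdkn1a, the p21 inhibitor, lay between 27.8 and 244 (median 76.2) in the 4-cell libraries and between 55.2 and 639.7 (median 322) in the 8-cell libraries and rose by 1.81 ± 0.42 (log2, SE), adjusted p = 0.0162. Plk2, a polo-like kinase, lay between 0 and 10.3 (median 3.19) in the 4-cell libraries and between 2.38 and 81.1 (median 28.3) in the 8-cell libraries and rose by 2.70 ± 0.65 (log2, SE), adjusted p = 0.0186. The others were Perp, a desmosomal effector with means of 2.33 and 35.6, and Sfn, the 14-3-3 protein sigma with means of 612 and 1098 and a call lost on leaving out any 1 of 8 libraries. Trp53 itself lay between 21.04 and 110.1 (median 87.5) in the 4-cell libraries and between 0.476 and 131 (median 55.5) in the 8-cell libraries, a difference of -0.93 ± 0.59 (log2, SE), adjusted p = 0.439, and Mdm2, its ubiquitin ligase, was at -0.46 (adjusted p = 0.621). In the Y-carrying libraries alone 5 members rose and 1 fell, but on the deposited scale 2 rose and 4 fell. None of 83 genes of DNA damage signalling and repair was a DEG by limma, with 15 at an unadjusted p under 0.05, whereas 1 rose and 2 fell in the Y-carrying libraries alone and 10 fell on the deposited scale. Over all genes tested, 2689 of 15406 were at an unadjusted p under 0.05 by limma. Of 26 BCL2 family and caspase genes 1 fell, Birc2, a ubiquitin ligase that restrains cell death, from a mean of 24.1 to 6.53, with a call lost on leaving out any 1 of 10 libraries and in the Y-carrying libraries alone, where 2 other members rose and 1 other fell. On the deposited scale 5 members fell. The 1 DEG of the main scale was 3.85% of this list, against 2.51% of all genes. Of 35 heat shock and unfolded protein genes 0 changed by 2-fold with 9 at an unadjusted p under 0.05. Of 41 antioxidant genes 2 rose (4.88%, against 2.51% of all genes), Prdx6 and Gsto1. Prdx6, a peroxiredoxin, rose by 1.08 and Gsto1, a glutathione transferase, by 1.60 (log2). Each call was lost on leaving out any 1 of 3 libraries (4-cell 1 or 5 or 8-cell 7 for Prdx6, and 4-cell 7 or 8-cell 5 or 6 for Gsto1) and in the Y-carrying libraries alone.

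Most genes of protein synthesis and respiration differed by less than 2-fold. Of 79 cytosolic ribosomal protein genes tested, 73 had an estimate above 0 and the median was 0.38, against 7359 of 15406 and -0.04 over all genes. At any fold 20 passed the test, all higher at the 8-cell stage (225 of 15406 over all genes), but only Rpl36a was a DEG. On the deposited scale their median was -0.19, with 18 above 0, where the median of all genes was -0.45. Of 76 nuclear genes of oxidative phosphorylation 63 were above 0, with a median of 0.42 and 2 DEGs (2.63%, near the 2.51% of all genes). Both were higher, Ndufb10 of complex I and Cox5a of complex IV, and their calls were lost on leaving out any 1 of 13 and of 6 libraries. On the deposited scale the median was -0.14 with 33 above 0. Of 44 proteasome genes 35 were above 0 with a median of 0.24, and on the deposited scale the median was -0.34. None was a DEG by limma, with 14 at an unadjusted p under 0.05, against 2689 of 15406 over all genes tested. The summed level of the proteasome genes was at most 6907.1 in the 4-cell and at least 6981.1 in the 8-cell libraries, a narrow gap. That of the DNA methylation list did not overlap either, at most 3004 in the 4-cell and at least 3191 in the 8-cell libraries. These sums are of normalised values and were not compared on the deposited scale. Of the 13 mitochondrially encoded mRNAs none was a DEG, 4 were at an unadjusted p under 0.05, and mt-Co1 was lower at the 8-cell stage, from 4600.2 ± 931 to 2634 ± 549 (mean ± SD, n = 8, adjusted p = 0.00145). The mitochondrial share of reads outside the ribosomal loci was 1.43% ± 0.239 in the 4-cell and 1.01% ± 0.233 in the 8-cell libraries (mean ± SD, exact two-sided permutation test, p = 0.00420, adjusted p = 0.00734). Among 48 translation factors Eif3k, a subunit of the initiation factor eIF3, was the only DEG. It lay between 41.7 and 122 (median 61.8) in the 4-cell libraries and between 100.3 and 269 (median 164) in the 8-cell libraries and rose by 1.23 ± 0.26 (log2, SE), adjusted p = 0.00868. Of 23 polyamine and amino acid supply genes only Sat1, the polyamine acetyltransferase on the X chromosome, rose. It lay between 283 and 849.9 (median 579) in the 4-cell libraries and between 460.4 and 1701 (median 1331) in the 8-cell libraries, a rise of 1.21 ± 0.24 (log2, SE), adjusted p = 0.00532, and was not a DEG in the Y-carrying libraries alone. No gene of 23 in glycolysis, 31 in cholesterol and fatty acid synthesis, 12 in ion transport or 18 in DNA methylation was a DEG by limma, with 7, 3, 0 and 5 at an unadjusted p under 0.05. On the deposited scale 3, 3, 1 and 3 of these fell, as did 4 of the heat shock list, 4 of the mitochondrial mRNAs and 2 of the proteasome list. Dnmt3b, a de novo methyltransferase, was at 1.83 (adjusted p = 0.0867) and its cofactor Dnmt3l at 0.27 (adjusted p = 0.837). Of 77 nucleolar genes the X-linked Las1l rose, of 53 polycomb and remodeller genes Rbbp7 and Hdac2 rose, and of 66 splicing regulators Snrpd3 rose. Except for Rbbp7, these calls were lost on leaving out any 1 of 5 to 12 libraries. As shares of the genes tested, DEGs were 1.30% of the nucleolar, 3.77% of the polycomb and remodeller and 1.52% of the splicing list. Over all genes the share was 2.51%. In the translation and polyamine lists it was 2.08% and 4.35%. Of 70 RNA polymerase II and Mediator genes 2 fell (2.86%). Gtf2a1, a subunit of the general factor TFIIA, went from a mean of 134 to 62.6, and Ccnt1, the cyclin of the elongation kinase P-TEFb, from 151 to 75.6, the latter with a call lost on leaving out any 1 of 9 libraries.

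Of 23 imprinted genes tested, 3 rose (Gnas, Ascl2 and Xist) and 2 fell (Usp29 and Gab1), with a median of 0.08. The call of Gab1, with means of 96.5 and 42.7, was lost on leaving out any 1 of 13 libraries. Gnas, the stimulatory G protein subunit, lay between 5.36 and 62.7 (median 19.6) in the 4-cell libraries and between 42.7 and 192 (median 133) in the 8-cell libraries and rose by 2.42 ± 0.41 (log2, SE), adjusted p = 0.00121. Usp29, expressed from the paternal copy next to Peg3, lay between 18.5 and 159 (median 50.4) in the 4-cell libraries and between 0 and 64.3 (median 4.63) in the 8-cell libraries and fell by 2.84 ± 0.62 (log2, SE), adjusted p = 0.00974. In the Y-carrying libraries Gnas was at 2.39 (adjusted p = 0.0344) and Usp29 at -3.17 (adjusted p = 0.00423).

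The design also asks whether the change from the 4-cell to the 8-cell stage differed between light and control embryos, which was tested as an interaction with the 6 control 4-cell and 4 control 8-cell libraries. Of 17183 genes tested, 871 (5.07%) had an interaction past the same thresholds, 285 in which the light embryos rose more or fell less (1.66%) and 586 in which they rose less or fell more (3.41%). The positive share was 32.7% on the main scale, 44.6% on the deposited scale and 52.2% by DESeq2, so the balance of directions is not fixed. The count ran from 689 to 1108 on leaving out single libraries, the latter without control 4-cell library 3.

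The 4 control 8-cell libraries were unusual in a way that touches every interaction. Y-linked reads were at most 1.41 CPM and Xist at most 5.64 CPM in each of them, whereas every light 8-cell library had the one or the other. The control 4-cell libraries were mixed. Libraries 1 and 2 held Y-linked reads at 0 and 1.46 CPM with Xist at 412 and 579 CPM. Libraries 3, 4, 5 and 6 held Y-linked reads at 77.0 to 353 CPM with Xist at 1.24 to 9.51 CPM. Several genes expressed from the paternal chromosome were looked at after the values were seen, and they did not all behave alike. Gab1 was at 0 in 4 of 4 control 8-cell libraries, and Snrpn, Impact and Kcnq1ot1 in 3 of 4, while in the 16 light libraries none of the 4 genes was at 0 and Snrpn lay between 32.9 and 114 and Impact between 32.9 and 175 (normalised values). Usp29 went the other way, at 8.36 to 239 in the control 8-cell and 0 to 64.3 in the light 8-cell libraries. Slc38a4 was at 0 in all 4 control 8-cell libraries but also in 5 of the 16 light libraries, and Peg3 was at 0 in 2 of the control 8-cell and 4 of the light libraries. The part of this in the interactions was not tested, and treatment cannot be told apart from it.

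Among the largest positive interactions, Bbx, a chromatin protein with an HMG box, went from 80.5 ± 35.95 to 89.2 ± 49.02 in the light libraries and from 117 ± 83.2 to 0.168 ± 0.335 in the controls, an interaction of 6.33 ± 0.75 (log2, SE), adjusted p = 6.50e-06. Ssr1, a subunit of the translocon-associated complex of the endoplasmic reticulum, went from 22.8 ± 18.4 to 82.3 ± 46.7 in the light libraries and from 118 ± 32.7 to 9.54 ± 7.44 in the controls, an interaction of 6.00 ± 0.86 (log2, SE), adjusted p = 1.14e-04. Tpm4, a tropomyosin, went from 23.9 ± 13.4 to 99.9 ± 49.98 in the light libraries and from 35.7 ± 21.8 to 7.31 ± 14.6 in the controls, with an interaction of 5.92 (log2). Ssr1 and Tpm4 were DEGs of the light transition, while the mean of the controls was lower at the 8-cell than at the 4-cell stage. Bex1, Xist and Sfmbt2, which are X-linked or imprinted, completed the 6 largest, with calls of Xist lost on leaving out any 1 of 11 libraries and of Sfmbt2 on leaving out any 1 of 4. Bex1 was at 0 in all control 8-cell libraries, so its estimate depends on the pseudocount. The same holds for Bbx, at 0 to 0.671 in the control 8-cell libraries, and Sfmbt2, at 0 to 0.578. In control 4-cell libraries 1 and 2 Bex1 was at 226 and 190 and Xist at 386 and 527. In the other control 4-cell libraries Bex1 was at 0 to 32.0 and Xist at 0.940 to 7.48.

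Among the most negative interactions, Chit1, a chitinase, went from 10.8 ± 19.6 to 7.11 ± 17.9 in the light libraries and from 1.55 ± 3.39 to 272 ± 98.2 in the controls, an interaction of -8.57 ± 1.25 (log2, SE), adjusted p = 1.33e-04. Scd3, a stearoyl-CoA desaturase, went from 41.5 ± 86.5 to 10.8 ± 14.3 in the light libraries and from 12.6 ± 23.5 to 737 ± 388 in the controls, with an interaction of -7.73, and Colgalt2, a collagen galactosyltransferase, went from 10.97 ± 23.3 to 1.02 ± 1.85 in the light libraries and from 0.138 ± 0.339 to 147 ± 129 in the controls, with an interaction of -7.65 (log2). Apol7b, Usp29 and Ccser1 were at -7.52, -6.75 and -6.50. In the control 4-cell libraries Colgalt2 lay between 0 and 0.829 and Apol7b between 0 and 0.663, so their estimates depend on the pseudocount too. In all 6 the mean was higher at the 8-cell than at the 4-cell stage in the controls and lower in the light libraries. Light 4-cell library 1 had the highest value of its stage for each of them and raised the light 4-cell means. It was at 58.7 for Chit1 and 253.7 for Scd3, where the other light 4-cell libraries reached 10.3 and 26.7. It was at 67.1 for Colgalt2 and 111.6 for Apol7b. Except for Usp29, the light falls in these means may thus depend on that library, and the means were not compared without it. The fall of Usp29 in the light transition was kept on leaving out any single library. Light 8-cell library 8 was at 51.4 for Chit1, 41.9 for Scd3 and 80.4 for Apol7b, above every light 4-cell library except library 1. For Colgalt2 and Ccser1 it was at 5.23 and 13.8, which was not above them. The interaction calls of Chit1, Scd3, Colgalt2 and Apol7b were kept on leaving out any single library. Of the genes of the transition itself, Tle3 at 4.86, Crip2 at 5.28, Vgll4 at 4.36, Cldn4 at 4.40 and Gata6 at 4.88 had positive interactions (log2), and Snai1 at -5.22, Gpr3 at -3.08, Trim13 at -3.17, Trim61 at -3.37 and Spin1 at -2.57 negative ones. The interaction of Amot did not pass, at 2.76 ± 1.24 (log2, SE), adjusted p = 0.202. The interaction shares the light libraries with the transition, so these values are not independent of it. By list, 9 of 56 oocyte genes had a negative and 0 a positive interaction. Of 79 ribosomal protein genes, 14 had a positive and 0 a negative one. Over all genes tested, 3.41% had a negative and 1.66% a positive interaction. Other lists had them too: 5 negative and 0 positive of 29 transient 2-cell genes, 1 and 6 of 26 imprinted genes, and 1 and 5 of 44 proteasome genes. Treatment cannot be told apart here from the unusual control 8-cell libraries.

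**Figure D5:**
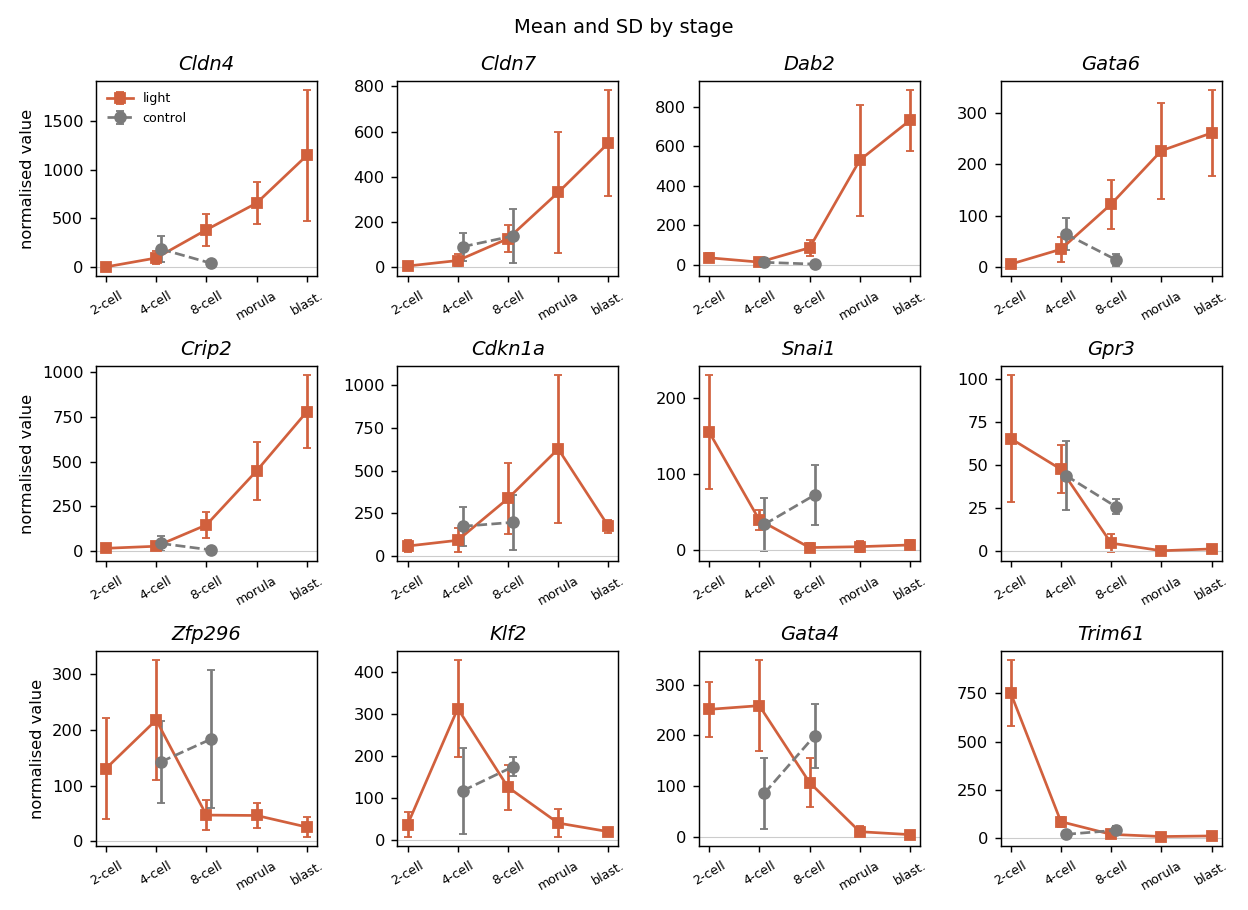
Mean normalised value of 12 genes at each light stage from 2-cell to blastocyst (squares, solid lines) and in the control 4-cell and 8-cell libraries (circles, dashed lines), with bars for the SD over libraries. Snai1 has a mean of 39.8 at the light 4-cell and 3.67 at the light 8-cell stage, and Cldn4 a mean of 1144 in light blastocysts.

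Over the other light stages, Amot had a mean of 44.5 at the 2-cell stage, 105 in morulae and 187 in blastocysts, so the 4-cell stage had the lowest mean of the 5. Snai1 had a mean of 155 at the 2-cell stage, 4.85 in morulae and 7.10 in blastocysts, against 39.8 at the 4-cell stage. Cldn4 went from 4.56 at the 2-cell stage to 1144 in blastocysts, and Gata6 from 4.94 to 261 (means). These stages were not tested against each other and are given as a description.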

How the data were processed

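RNA of 16 light-exposed libraries, 8 each of 4-cell and 8-cell embryos, and of 10 control libraries of the same stages was analysed from the table of 26414 genes in 67 libraries. The submitters' processing notes name HISAT2, HTSeq 0.9.1 and mm9, and no strand setting is given in the sources used here. The deposited values are a signal: read counts divided by a size factor per library, which the authors computed, although the methods speak of RPKM. At least 99.98% of values in each of the 16 libraries were whole multiples of 1 read (tolerance 0.01), so whole reads were recovered for the count tests.

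The deposited size factors follow the ribosomal RNA loci CT010467.1 and Gm42418. Each library was therefore rescaled with 6062 genes that were above 1 in all 16 libraries: the median of their ratios to each gene's geometric mean was divided out, which gives the normalised value. Genes above 1 in at least 3 libraries were tested with limma 3.58.1 (R 4.3.3, trended empirical Bayes) on log2(normalised value + 1), a scale that understates the change of low genes. DEGs have a Benjamini-Hochberg adjusted p under 0.05 and a fold of at least 2, the thresholds of the study. The interaction used the same model over the 4 groups. Library measures were compared by exact two-sided permutation tests. The closest pairs of libraries within a stage still differed by more than sampling noise (chi-square per degree of freedom 6.64 and 9.63), so all were counted as separate. Alternatives were the deposited scale, quantile normalisation, a pseudocount of 0.1, other filters, edgeR 4.0.16 and DESeq2 1.42.0 on recovered reads, a fit over all 10 groups, library weights, equal depth, a replicate block, 8-cell libraries with over 10 CPM of Y-linked reads only, and leaving out each library. The scripts were tested on simulated data.

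Genes named are the 12 largest rises and falls among DEGs without overlap and with a mean of at least 10 in the higher group, leaving out predicted genes; up to 3 DEGs per list and direction with the smallest p; a set of lineage and stress genes whatever their values; and the 6 most positive and 6 most negative interactions. Other genes named to complete a count of 5 or fewer, the X-linked level, the counts by chromosome and the promoters were chosen after values were seen. Some members of these lists are not reported here. The comparison and the gene lists were chosen with earlier results of these data known. Chromosomes came from GENCODE (GRCm38), used for position only. Replicate numbers 5, 6, 7, 9 and 11 occur at both stages, but same-numbered libraries did not deviate together (correlations -0.04 to 0.03), so they were not paired.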

Additional observations from a re-analysis of the deposited data

Results flagged for a closer look

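In 176 groups of 4 to 10 libraries checked, chance alone flags about 1 in 20. Among the 8-cell libraries, library 8 stood apart from the others in several genes on the log2(normalised value + 1) scale: it was low for Cldn7 at 4.74, Dab2 at 2.64, Cldn6 at 0.96 and Trp53 at 0.56, and high for Chit1 at 5.71. Library 5 was low for Gata4 at 4.34 and high for Uba1y at 3.41, library 7 was high for Pus7l at 1.06, library 9 was low for Cldn4 at 5.23, library 10 was low for Oog3 at 3.49, and library 11 was at 0 for Ccnd1 and low for Bbx at 3.41. Among the 4-cell libraries, library 9 was low for Spry2 at 2.03 and high for Ascl2 at 2.36, library 11 was low for Tpm4 at 1.22, and library 6 had the most Y-linked reads, at 283 CPM. The calls of Cldn7, Dab2, Oog3, Gata4, Cldn4, Ccnd1, Spry2, Uba1y and Pus7l were kept without these libraries, since each stood on leaving out any single one.

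The transition differed between light and control embryos, by the interaction test, for 871 genes. The estimates (log2, light minus control) were 7.43 for Bex1, 6.33 for Bbx, 6.00 for Ssr1, 5.92 for Tpm4, 5.91 for Xist and 5.87 for Sfmbt2, and -8.57 for Chit1, -7.73 for Scd3, -7.65 for Colgalt2, -7.52 for Apol7b, -6.75 for Usp29 and -6.50 for Ccser1. These rest on 4 control 8-cell libraries without Y-linked reads above 1.41 CPM or Xist above 5.64 CPM, and on control 4-cell libraries that were mixed in both. The part of that in the estimates was not tested.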

How the results depend on the processing

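The count of 386 DEGs became 1602 on the deposited scale, 205 without a filter on low values, 244 by edgeR, 79 in a fit over all 10 groups and 13 with a replicate block, and stayed within 1.5 times under the other settings. Leaving out single libraries gave 243 to 443. The share of DEGs that rose, 40.4% in the main result, was 5.87% on the deposited scale, 7.69% with the replicate block and 25.2% with only the Y-carrying 8-cell libraries. The replicate block uses the 5 numbers shared between the stages, whose libraries did not deviate together. The interaction gave 151 genes with the replicate block. Its positive share was 44.6% on the deposited scale, 45.6% by edgeR and 52.2% by DESeq2. Xist was at -0.47 (log2) with the Y-carrying libraries only (adjusted p = 0.786). At a minimum of 5 reads, 10.75 more genes were detected at the 8-cell stage on average instead of fewer (exact permutation p = 0.930). The cause was not tested, but the setting without a filter tests 21725 genes and the Y-carrying setting uses 3 libraries at the 8-cell stage. Of the 24 largest changes, the call of 5 was lost on the deposited scale (Rbbp7, Rpl36a, Hprt, Skp1a and Myl6), of 2 by edgeR (Vgll4 and Atxn1), of 8 in the fit over all 10 groups, of 3 at equal depth (Myl6, Brat1 and Rnf170), of 2 with library weights (Skp1a and Myl6), of 1 with quantile normalisation (Hprt), of 21 with the replicate block and of 12 in the Y-carrying libraries. None was lost with a pseudocount of 0.1, without a filter, with a mean over 5 or by DESeq2. Depth limits genes with a few reads per library, such as Cdx2.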

Other observations

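Some gene families outside the lists of the report were picked by symbol after the values were seen. Over all genes 1.49% fell, 8047 of 15406 had an estimate below 0 and the median was -0.04 (log2, 8-cell minus 4-cell). Of 36 kinesin genes (Kif) tested, 27 had an estimate below 0, the median was -0.32, and 3 fell, Kif11, Kif2c and Kif16b, while 0 rose. Kif11 drives spindle pole separation and Kif2c depolymerises microtubules at centromeres. The call of Kif16b was lost on leaving out any 1 of 5 libraries. Of 6 condensin genes (Ncap) 5 were below 0 and 2 fell, Ncapg and Ncapd2, with calls lost on leaving out any 1 of 10 and of 6 libraries. Of 20 centromere protein genes (Cenp) 13 were below 0, the median was -0.08, close to that of all genes, and 1 fell, Cenpl, with a call lost on leaving out any 1 of 8 libraries. Of 314 zinc finger genes with a Zfp symbol 213 were below 0, the median was -0.35 and 7 fell and 1 rose. These counts have no test, since the families were chosen on the values.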
